A study of Mus musculus with 8 samples.

Results

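The cytochrome P450 genes described here were all genes on a mouse array whose symbol begins with Cyp and a digit, without Cyp7a1, Cyp7b1, Cyp8b1, Cyp27a1 and Cyp51, the enzymes of bile acid and cholesterol synthesis. Only probe sets that name 1 gene were used. This gave 36 genes with 42 probe sets, of 8251 genes and 12422 probe sets in all. By family there were 3 genes of Cyp1, 17 of Cyp2, 4 of Cyp3, 6 of Cyp4 and 6 of other families. The genes were grouped by the best known substrates of their subfamily or family, not gene by gene. This put 21 under drugs and other foreign compounds, 8 under fatty acids and 6 under steroids, vitamin D or retinoic acid. Cyp2s1 was put in none of these groups. The name drug metabolism therefore covers only some of the 36 genes. A further 7 probe sets that name several P450 genes were left out, so that Cyp2a4 and Cyp2a5 had no probe set of their own, nor had Cyp2d22, Cyp3a41a or Cyp4a12a.

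Total RNA of mouse liver was hybridised to 8 Affymetrix MG-U74Av2 arrays. All mice carried the low-expressing Ttr::Fv2E-Perk transgene (line #58), in which the transthyretin promoter drives a fusion of the stress kinase PERK with a dimerisation domain, on a mixed FvB/n and Swiss Webster background. They were siblings with either both copies of the transcription factor gene Atf4 (Atf4+/+) or neither (Atf4-/-), and were untreated or given AP20187, which joins the Fv2E domains and so activates the kinase, with 2 arrays in each group. Dose, duration, age and sex are not given in the sources used here, nor whether a group's arrays are of different animals; where they are not, a p-value covers the spread of these samples alone, which may be technical.

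Atf4 itself did not follow the labels in every array. Its ratio was 2.36 and 0.30 in untreated Atf4+/+, 0.29 and 1.67 in untreated Atf4-/-, 4.17 and 5.75 in treated Atf4+/+, and 0.25 and 0.33 in treated Atf4-/-. Untreated Atf4+/+ replicate 2 was thus low and untreated Atf4-/- replicate 2 high, against their labels. Whether this probe set lies in the deleted part of the gene is not known. The source name of untreated Atf4-/- replicate 1, used here, and its description also give different genotypes. For untreated Atf4+/+ replicate 1 the group was taken from the description, and for every other array from the source name. Results that use untreated arrays, AP20187 effects among them, are therefore about the arrays as labelled. Values without the arrays in doubt are given for some genes only, and others may change by much without them.

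P450 enzymes are haem proteins of the endoplasmic reticulum and mitochondria that insert oxygen into fats, hormones and foreign compounds, with electrons passed on by P450 reductase, cytochrome b5 or ferredoxin. In liver, the aryl hydrocarbon receptor is known to drive Cyp1a genes, the nuclear receptors CAR and PXR drive Cyp2b and Cyp3a genes, and PPAR alpha drives Cyp4a genes. Many Cyp2 and Cyp3 genes of mouse liver are also known to differ between females and males and with fasting or inflammation.

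The promoters of 4 genes are shown because their ratios, described below, gave the clearest contrasts between groups or neighbouring genes. Each is the stretch of 250 bases before the transcription start (RefSeq, GRCm38.p6), written from 5′ to 3′ on the strand of the gene. Capitals mark GCGTG, the core of the element bound by the aryl hydrocarbon receptor, on either strand (CACGC where it is on the other strand), and TATAAA, the TATA box. Cyp1a1 lies at chr9:57697363-57697612 (plus strand), Cyp1a2 at chr9:57683656-57683905 (minus strand), Cyp2b10 at chr7:25897408-25897657 (plus strand) and Cyp27b1 at chr10:127047996-127048245 (plus strand).
Cyp1a1: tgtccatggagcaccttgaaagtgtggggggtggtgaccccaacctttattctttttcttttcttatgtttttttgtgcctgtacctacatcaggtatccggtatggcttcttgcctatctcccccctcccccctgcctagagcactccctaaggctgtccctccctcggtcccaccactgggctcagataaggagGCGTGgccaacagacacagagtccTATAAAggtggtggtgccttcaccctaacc
Cyp1a2: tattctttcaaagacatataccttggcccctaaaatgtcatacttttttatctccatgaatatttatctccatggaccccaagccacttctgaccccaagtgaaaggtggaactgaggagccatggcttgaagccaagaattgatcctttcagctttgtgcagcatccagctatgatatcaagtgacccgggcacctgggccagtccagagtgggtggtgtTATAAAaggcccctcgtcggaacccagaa
Cyp2b10: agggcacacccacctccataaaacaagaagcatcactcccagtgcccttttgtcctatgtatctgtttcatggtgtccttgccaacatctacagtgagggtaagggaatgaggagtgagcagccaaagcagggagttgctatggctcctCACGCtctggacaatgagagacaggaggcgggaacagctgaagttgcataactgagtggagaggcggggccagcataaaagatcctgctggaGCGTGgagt
Cyp27b1: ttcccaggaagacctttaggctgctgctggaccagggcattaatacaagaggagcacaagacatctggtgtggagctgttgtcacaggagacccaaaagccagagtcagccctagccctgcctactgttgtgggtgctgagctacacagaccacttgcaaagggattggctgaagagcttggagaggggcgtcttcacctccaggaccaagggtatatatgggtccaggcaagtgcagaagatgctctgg

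In Cyp1a1 GCGTG lay 54 to 50 bases before the start and TATAAA 30 to 25 bases before it. Cyp1a2 held TATAAA at 29 to 24 bases and no GCGTG in this window. Cyp2b10 held GCGTG at 9 to 5 bases and, on the other strand, at 101 to 97 bases. Neither motif was found in the stretch shown for Cyp27b1. A promoter was found for 30 of the 36 genes. GCGTG was present on either strand in 4 of the 30 (Cyp1a1, Cyp1b1, Cyp2b10 and Cyp4v3), against 28.2% of all 27025 promoters of this length. TATAAA was present in 13 of the 30, against 13% of all. The element TGATGNAAN, to which ATF4 binds together with C/EBP factors, was present only in Cyp3a11 among the 30, and in 3.51% of all promoters. TTATGTAA, the site of the clock factors DBP and TEF, and the direct repeat of HNF4 and PPAR were present in 0 of the 30, and in 0.862% and 0.037% of all promoters. Both strands were searched and matches could overlap. A match is a description of letters and not a binding site. Sequence farther than 250 bases from the start was not searched, so a motif absent here may lie elsewhere at the gene.

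Values are linear ratios given to 0.01. Since the median over the 8 arrays was 1 for most genes, a ratio of 1 is a gene's middle level, and levels of different genes cannot be compared. Array medians over all probe sets lay between 0.95 and 0.99. Differences are on the scale log2(ratio + 0.1), with the standard error (SE) of a limma fit to all 8 arrays, and adjusted p is the Benjamini-Hochberg value among 12422 probe sets, called under 0.05. The median SE of 2 against 2 arrays was 0.325 over all probe sets. The hepatocyte markers Alb, Ttr, Apoa1, Apob, Tat and Cps1, the 6 of 8 listed that were measured, had summed ratios from 4.64 in treated Atf4+/+ replicate 2 to 7.06 in untreated Atf4-/- replicate 1, and none was at 0.

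**Figure D1:**
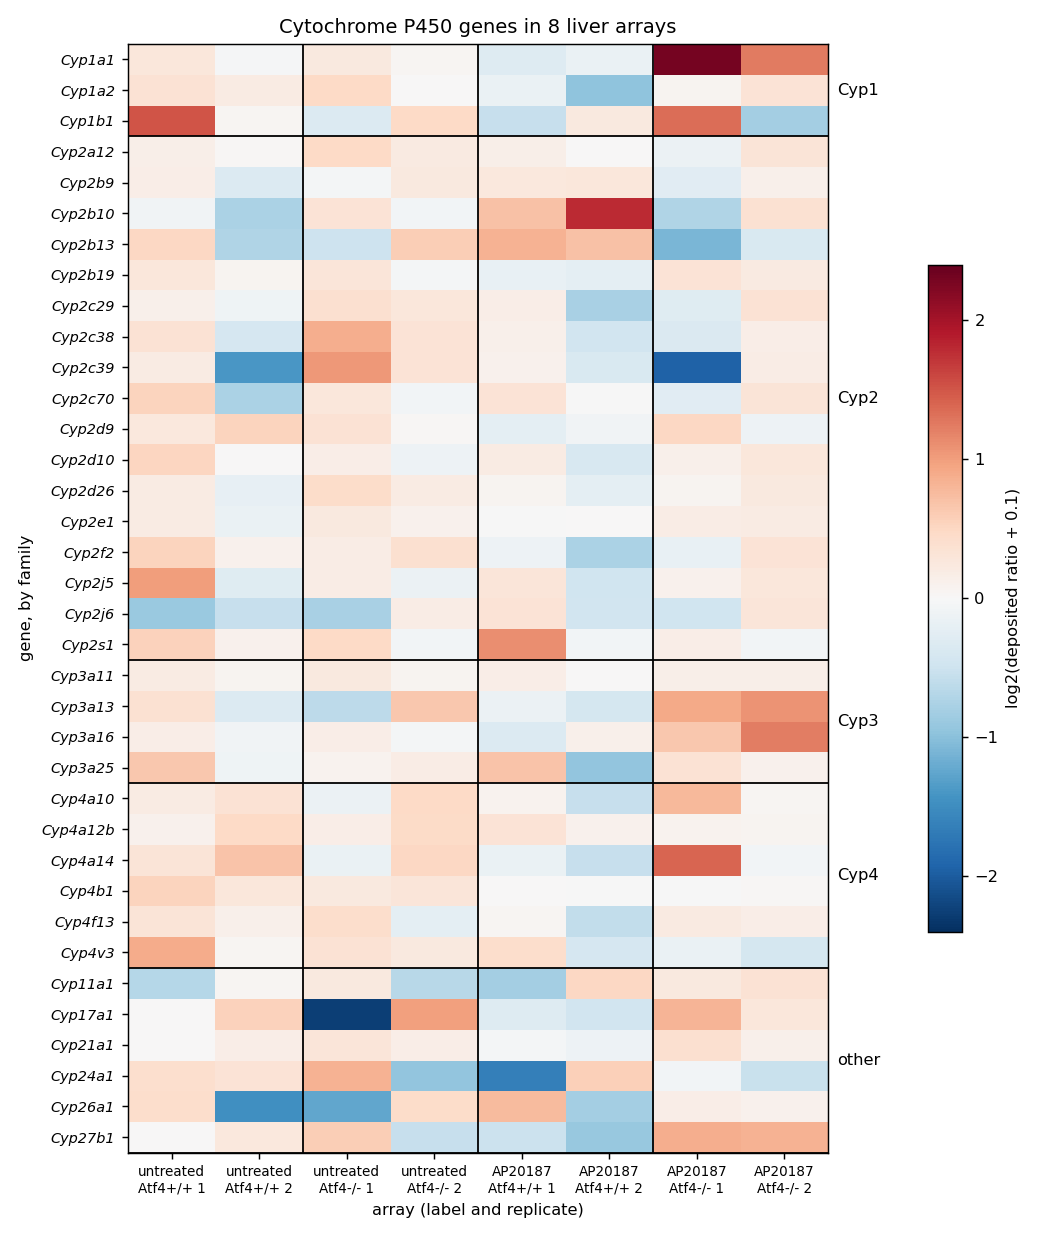
Each cell is log2(deposited ratio + 0.1) of a P450 gene (vertical axis, by family) in an array (horizontal axis, by group and replicate), with red above and blue below 0. Because of the added 0.1, a ratio of 1 lies slightly above 0 and is pale red. The darkest red cell is Cyp1a1 in treated Atf4-/- replicate 1 (ratio 4.82) and the darkest blue is Cyp17a1 in untreated Atf4-/- replicate 1 (ratio 0.11).

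No P450 gene passed the adjusted threshold in any of the 6 comparisons in limma. At an unadjusted p under 0.05 the AP20187 effect in Atf4+/+ held 1 gene that was higher (Cyp2b10) and 1 that was lower (Cyp1a2), where 4.78% and 4.31% of all probe sets were called. The effect in Atf4-/- held 2 higher (Cyp1a1 and Cyp3a16; background 4.27%) and 0 lower (3.16%). Between the genotypes after AP20187, 4 were higher in Atf4-/- (Cyp1a1, Cyp27b1, Cyp3a16 and Cyp3a13; background 2.53%) and 2 lower (Cyp2b10 and Cyp2b13; 2.78%). Without AP20187 there were 0 in either direction, against 2.76% of all probe sets that were higher and 2.56% that were lower in Atf4-/-. The difference of the AP20187 effects was above 0 in 3 of these genes (Cyp1a1, Cyp27b1 and Cyp3a16; background 2.73%) and below 0 in 1 (Cyp2b10; 2.73%). Over both genotypes 1 was higher (Cyp1a1; background 6.16%) and 0 lower (5.15%). At the adjusted threshold the shares of all probe sets were 0.00805% for the effect in Atf4+/+, 0.0403% over both genotypes and 0% in the other 4 comparisons.

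The 36 genes together stood lower after AP20187 in Atf4+/+ than the array as a whole. Their median difference was -0.31, against -0.06 over all probe sets, and 27 of 36 lay below 0, as did 6822 of all 12422 probe sets. In Atf4-/- the median was 0.01 (all probe sets -0.02), with 19 above and 17 below 0. This median in Atf4+/+ rested on 2 arrays: it was -0.06 without untreated Atf4+/+ replicate 1 and also -0.06 without treated Atf4+/+ replicate 2. Ratios of the treated and untreated Atf4+/+ arrays did not overlap in 4 genes that were higher and 12 that were lower, against 16.7% and 21.3% of all probe sets. In Atf4-/- they did not overlap in 5 higher and 5 lower genes, against 20.1% and 22.3%. Between the genotypes after AP20187 the median was 0.28 (all probe sets 0.04), and groups did not overlap in 12 genes that were higher and 4 that were lower in Atf4-/- (19.2% and 15.3% of all). That median was 0.05 without treated Atf4+/+ replicate 2. Without AP20187 the median was 0.00 (all probe sets -0.01), and groups did not overlap in 5 genes that were higher and 0 that were lower (15.5% and 16.4% of all).

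**Figure D2:**
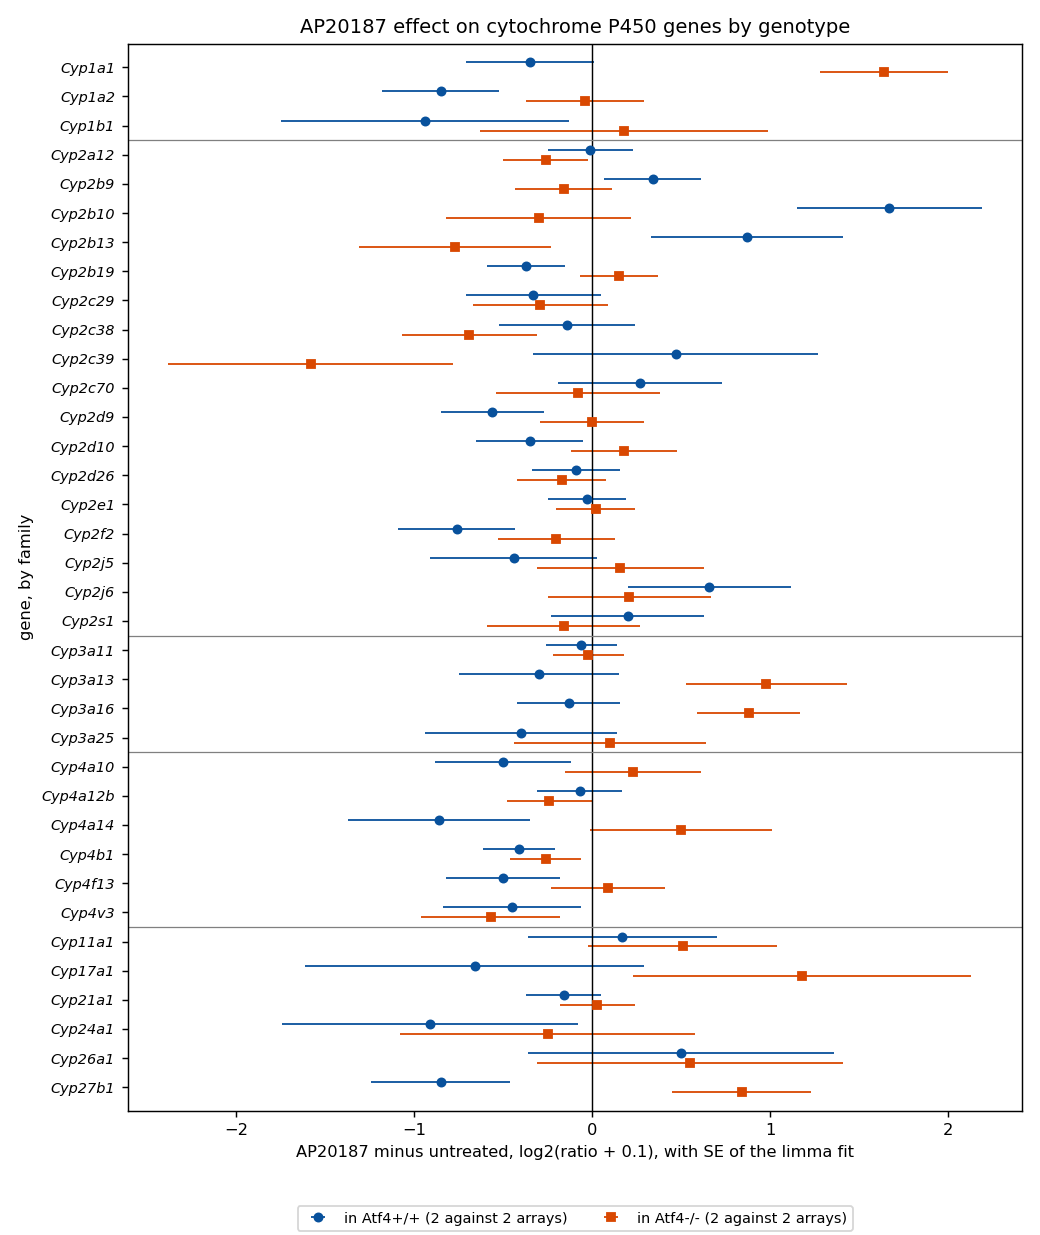
The horizontal axis is the AP20187 effect (treated minus untreated, log2(ratio + 0.1)) of each P450 gene (vertical axis, by family) in Atf4+/+ (circles) and Atf4-/- (squares), with bars for the SE of the limma fit and 2 arrays against 2. Cyp1a1 in Atf4-/- (1.64) and Cyp2b10 in Atf4+/+ (1.67) lie farthest to the right, and Cyp2c39 in Atf4-/- (-1.58) farthest to the left.

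In the Cyp1 family, Cyp1a1, which oxidises polycyclic aromatic hydrocarbons, stood apart in the treated Atf4-/- arrays. Its ratio was 1.10 and 0.88 in untreated Atf4+/+, 1.07 and 0.93 in untreated Atf4-/-, 0.71 and 0.79 in treated Atf4+/+, and 4.82 and 2.27 in treated Atf4-/-. Both treated Atf4-/- arrays were above all others, and both treated Atf4+/+ arrays below all others. The AP20187 effect was 1.64 ± 0.36 (SE) in Atf4-/- (unadjusted p = 0.00359, limma adjusted p = 0.446) and -0.35 ± 0.36 in Atf4+/+ (adjusted p = 0.798). After AP20187, Atf4-/- exceeded Atf4+/+ by 2.01 ± 0.36 (unadjusted p = 0.00124, adjusted p = 0.456 in limma), and the effects differed by 1.99 ± 0.52 (unadjusted p = 0.00748, adjusted p = 0.791 in limma). A second probe set naming Cyp1a1 gave another picture, with ratios of 1.07 and 0.54 in untreated Atf4+/+, 0.93 and 2.30 in untreated Atf4-/-, 0.70 and 1.56 in treated Atf4+/+, and 0.52 and 3.05 in treated Atf4-/-. Its arrays overlapped between all groups, and its AP20187 effect in Atf4-/- was -0.17 ± 0.85, of the opposite sign. The first probe set was chosen by its smaller SD within groups, which also lowers its SE and p-values. With the mean of both probe sets the effect of the gene in Atf4-/- was 0.73 and the difference of the effects 0.70. In the first probe set without treated Atf4-/- replicate 1 the effect was 1.11.

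Cyp1a2, which oxidises caffeine and aromatic amines and is the neighbour of Cyp1a1 on the chromosome, did not share this pattern. Its ratio was 1.18 and 1.05 in untreated Atf4+/+, 1.29 and 0.90 in untreated Atf4-/-, 0.79 and 0.41 in treated Atf4+/+, and 0.95 and 1.16 in treated Atf4-/-. The treated Atf4+/+ arrays were the lowest of the 8. The difference from untreated was -0.85 ± 0.33 in Atf4+/+ (unadjusted p = 0.0414, limma adjusted p = 0.526) and -0.04 ± 0.33 in Atf4-/-, and the effects differed by 0.81 ± 0.47 (limma adjusted p = 0.944). Without treated Atf4+/+ replicate 2 the difference in Atf4+/+ was -0.45. Cyp1b1, known mainly outside the liver, had 2.75 and 0.93 in untreated Atf4+/+, 0.70 and 1.29 in untreated Atf4-/-, 0.58 and 1.07 in treated Atf4+/+, and 2.42 and 0.47 in treated Atf4-/-. The treated and untreated arrays overlapped in both genotypes, and the lowest array (0.47) shared its group with an array at 2.42. A second probe set of Cyp1b1 had a row median of only 0.11. Its ratios were 0.10 to 0.23 in Atf4+/+, 0.12 and 0.47 in untreated Atf4-/-, and 0.05 and 0.08 in treated Atf4-/-. Its AP20187 effect in Atf4-/- was -1.11 ± 0.49 (limma adjusted p = 0.681), opposite in sign to 0.18 ± 0.81 in the first probe set.

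**Figure D3:**
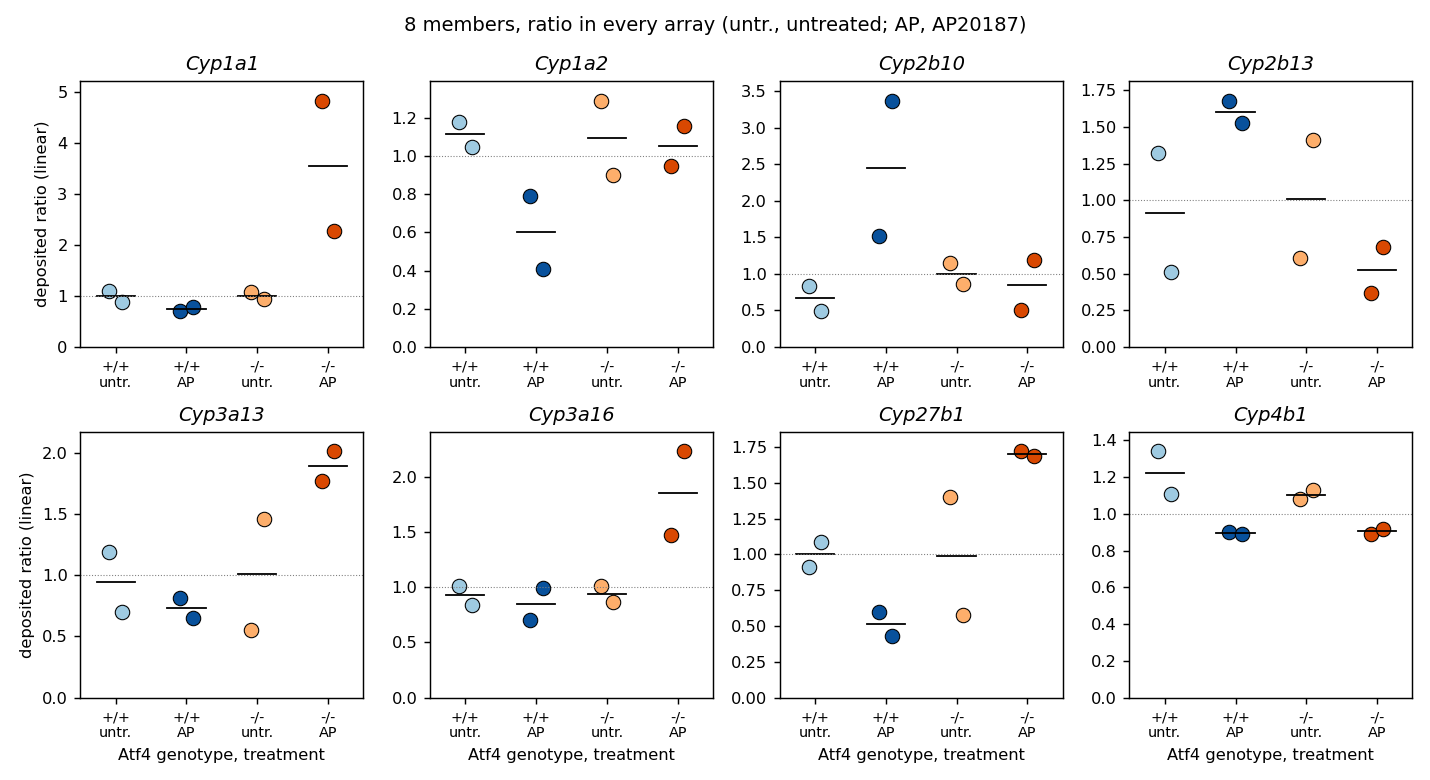
Deposited linear ratio (vertical axis) of 8 P450 genes in every array by genotype and treatment (horizontal axis), with 2 points a group, a black bar at their mean and a dotted line at 1. Cyp1a1, Cyp3a13, Cyp3a16 and Cyp27b1 are highest in treated Atf4-/-, Cyp2b10 and Cyp2b13 in treated Atf4+/+, and for Cyp4b1 the 4 treated arrays lie below the 4 untreated ones.

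The Cyp2b genes ran the other way, with higher ratios in the treated Atf4+/+ arrays. Cyp2b10, the best known target of the receptor CAR, had ratios of 0.84 and 0.49 in untreated Atf4+/+, 1.15 and 0.86 in untreated Atf4-/-, 1.52 and 3.37 in treated Atf4+/+, and 0.51 and 1.19 in treated Atf4-/-. Both treated Atf4+/+ arrays were above the other 6. The AP20187 effect was 1.67 ± 0.52 in Atf4+/+ (unadjusted p = 0.0166, limma adjusted p = 0.454) and -0.30 ± 0.52 in Atf4-/-, and the effects differed by -1.98 ± 0.73 (unadjusted p = 0.0337, limma adjusted p = 0.906). The effect in Atf4+/+ was 1.12 without treated Atf4+/+ replicate 2 and 1.33 without untreated Atf4+/+ replicate 2. Cyp2b13, a form known as female-predominant, had 1.32 and 0.51 in untreated Atf4+/+, 0.61 and 1.41 in untreated Atf4-/-, 1.68 and 1.53 in treated Atf4+/+, and 0.37 and 0.68 in treated Atf4-/-. The treated groups did not overlap, while the arrays within either untreated group lay far apart. After AP20187 Atf4-/- was below Atf4+/+ by a difference of -1.49 ± 0.54 (unadjusted p = 0.03, limma adjusted p = 0.874). Cyp2b9, also female-predominant, varied less, with 1.01 and 0.70 in untreated Atf4+/+, 0.87 and 1.07 in untreated Atf4-/-, 1.09 and 1.10 in treated Atf4+/+, and 0.73 and 0.99 in treated Atf4-/-. Its treated groups did not overlap either, with a difference of -0.33 ± 0.27 (limma adjusted p = 0.956). Cyp2b19, known from skin, went against these, with 0.78 and 0.75 in treated Atf4+/+ and 0.87 to 1.15 in the other arrays.

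Among the Cyp2c genes, arrays of the same group often stood far apart. Cyp2c39 had ratios of 1.05 and 0.28 in untreated Atf4+/+, 1.97 and 1.16 in untreated Atf4-/-, 0.97 and 0.68 in treated Atf4+/+, and 0.16 and 1.03 in treated Atf4-/-. Untreated Atf4+/+ replicate 2 and treated Atf4-/- replicate 1 were far below the rest. Its AP20187 effect in Atf4-/- was -1.58 ± 0.80 (limma adjusted p = 0.715), and -0.52 without treated Atf4-/- replicate 1. Cyp2c38 had 1.17 and 0.66 in untreated Atf4+/+, 1.72 and 1.16 in untreated Atf4-/-, 0.99 and 0.63 in treated Atf4+/+, and 0.69 and 1.02 in treated Atf4-/-. Here too those arrays were low, together with treated Atf4+/+ replicate 2. In untreated liver the median difference of Atf4-/- from Atf4+/+ over Cyp2c29, Cyp2c38, Cyp2c39 and Cyp2c70 was 0.47, with 4 of 4 above 0 (6130 of all 12422 probe sets) and 0 with an unadjusted p under 0.05 in limma (2.76% of all were called higher). Without untreated Atf4+/+ replicate 2, whose Atf4 level stood against its label, that median was 0.23 with 3 of 4 above 0, and without replicate 1 it was 0.93. Cyp2c29, the epoxygenase known as abundant in liver, had 0.99 and 0.83 in untreated Atf4+/+, 1.21 and 1.10 in untreated Atf4-/-, 1.01 and 0.48 in treated Atf4+/+, and 0.72 and 1.18 in treated Atf4-/-. Its untreated groups did not overlap, with a difference of 0.32 ± 0.38 (limma adjusted p = 0.999). Cyp2c70, which makes muricholic acids in mice, ranged from 0.49 in untreated Atf4+/+ replicate 2 to 1.34 in replicate 1 of that group.

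Of the other Cyp2 genes none had an unadjusted p under 0.05 in any comparison. Cyp2e1, which oxidises ethanol and paracetamol, had ratios of 1.05 and 0.80 in untreated Atf4+/+, 1.07 and 0.97 in untreated Atf4-/-, 0.89 and 0.90 in treated Atf4+/+, and 1.03 and 1.04 in treated Atf4-/-. Its effects of AP20187 were -0.03 ± 0.22 in Atf4+/+ and 0.02 ± 0.22 in Atf4-/-. Cyp2f2, which activates naphthalene, had 1.35 and 0.97 in untreated Atf4+/+, 1.03 and 1.20 in untreated Atf4-/-, 0.82 and 0.49 in treated Atf4+/+, and 0.78 and 1.16 in treated Atf4-/-. The treated Atf4+/+ arrays lay below the untreated ones, with a difference of -0.76 ± 0.33 (unadjusted p = 0.0571, limma adjusted p = 0.565), whereas in Atf4-/- it was -0.20 ± 0.33. Without treated Atf4+/+ replicate 2 the difference in Atf4+/+ was -0.44. Cyp2d9, a male-predominant steroid hydroxylase, had 1.09 and 1.35 in untreated Atf4+/+, 1.18 and 0.92 in untreated Atf4-/-, 0.75 and 0.84 in treated Atf4+/+, and 1.32 and 0.82 in treated Atf4-/-. The treated Atf4+/+ arrays were lower than the untreated ones, with a difference of -0.56 ± 0.29 (limma adjusted p = 0.619), and its effect in Atf4-/- was 0.00 ± 0.29.

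Of the further Cyp2d genes, Cyp2d26 had ratios of 1.05 and 0.77 in untreated Atf4+/+, 1.26 and 1.05 in untreated Atf4-/-, 0.94 and 0.75 in treated Atf4+/+, and 0.95 and 1.07 in treated Atf4-/-. Cyp2d10 had 1.33 and 0.90, then 1.01 and 0.82, then 1.05 and 0.67, then 0.99 and 1.11 in the same order of groups. Neither was ordered by treatment in these probe sets, and in untreated liver Atf4-/- differed from Atf4+/+ by 0.32 ± 0.25 for Cyp2d26 (limma adjusted p = 0.998) and by -0.24 ± 0.30 for Cyp2d10 (limma adjusted p = 0.999). A second probe set of Cyp2d10 had 0.92 and 0.77 in treated and 1.12 and 0.95 in untreated Atf4+/+, lower without overlap, as were 21.3% of all probe sets. Its difference between the untreated genotypes was 0.08 ± 0.21, of the opposite sign. Cyp2a12 stayed between 0.81 and 1.29 in every array. Of the arachidonic acid epoxygenases, Cyp2j5 ranged from 0.62 to 1.90. Cyp2j6, whose row median was 0.625 rather than 1, had 0.44 and 0.58 in untreated Atf4+/+, 0.48 and 1.03 in untreated Atf4-/-, 1.16 and 0.63 in treated Atf4+/+, and 0.62 and 1.12 in treated Atf4-/-. Its untreated Atf4+/+ arrays lay below the treated ones, with a difference of 0.66 ± 0.46 (limma adjusted p = 0.702), which was 0.27 without treated Atf4+/+ replicate 1 and 1.06 without replicate 2. Cyp2s1 reached 2.06 in treated Atf4+/+ replicate 1 and was 0.86 in replicate 2.

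In the Cyp3 family the main enzyme of adult liver was level while 2 minor forms were higher in treated Atf4-/-. Cyp3a11, the PXR target that carries most Cyp3a activity, had ratios of 1.05 and 0.95 in untreated Atf4+/+, 1.08 and 0.95 in untreated Atf4-/-, 1.01 and 0.90 in treated Atf4+/+, and 1.0 and 1.0 in treated Atf4-/-. Its range over the 8 arrays, 0.24 on the log2 scale, was the smallest of the 36 genes, whose median range was 1.31 (all probe sets 1.12). Its AP20187 effects were -0.06 ± 0.20 and -0.02 ± 0.20 in Atf4+/+ and Atf4-/-. Cyp3a16, the form known from fetal and young liver, had 1.01 and 0.84 in untreated Atf4+/+, 1.01 and 0.87 in untreated Atf4-/-, 0.70 and 0.99 in treated Atf4+/+, and 1.47 and 2.23 in treated Atf4-/-. Both treated Atf4-/- arrays were above the other 6. The AP20187 effect was 0.88 ± 0.29 in Atf4-/- (unadjusted p = 0.0209, limma adjusted p = 0.607) and -0.13 ± 0.29 in Atf4+/+, and the effects differed by 1.01 ± 0.41 (unadjusted p = 0.0461, limma adjusted p = 0.909). A probe set that names Cyp3a16 and Cyp3a11 together was not raised, with 0.97 and 0.90 in treated Atf4-/- and 0.95 to 1.19 in the other arrays. Cyp3a13, known from intestine and liver, had 1.19 and 0.70 in untreated Atf4+/+, 0.55 and 1.46 in untreated Atf4-/-, 0.81 and 0.65 in treated Atf4+/+, and 1.77 and 2.01 in treated Atf4-/-. The treated groups did not overlap and differed by 1.27 ± 0.45 (unadjusted p = 0.0297, limma adjusted p = 0.873). Its AP20187 effect in Atf4-/- was 0.98 ± 0.45 (limma adjusted p = 0.689), and it was 0.35 without untreated Atf4-/- replicate 1 and 1.61 without untreated Atf4-/- replicate 2. Cyp3a25 was lowest in treated Atf4+/+ replicate 2 (0.42) and highest in replicate 1 of that group (1.50).

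All 6 Cyp4 genes, which hydroxylate fatty acids, lay below 0 in the AP20187 effect in Atf4+/+, as did 6822 of all 12422 probe sets. Their median was -0.47, against -0.06 over all probe sets. At an unadjusted p under 0.05 in limma 0 of them were called, where 4.78% of all probe sets were called higher and 4.31% lower. Treated Atf4+/+ replicate 2 had the lowest 5′ over 3′ signal of Actb and the lowest summed, but not the lowest median, hepatocyte marker ratio. Without that array the Cyp4 median was -0.18 with 5 of 6 below 0, and without replicate 1 of the same group it was -0.82. In Atf4-/- the median of the Cyp4 genes was -0.07, with 3 above and 3 below 0. Cyp4a14 and Cyp4a10, known targets of PPAR alpha, followed each other. Cyp4a14 had ratios of 1.14 and 1.51 in untreated Atf4+/+, 0.79 and 1.32 in untreated Atf4-/-, 0.79 and 0.58 in treated Atf4+/+, and 2.52 and 0.86 in treated Atf4-/-. Cyp4a10 had 1.04 and 1.17, then 0.81 and 1.30, then 0.96 and 0.58, then 1.61 and 0.93 in the same order of groups. Both were lowest in treated Atf4+/+ replicate 2 and highest in treated Atf4-/- replicate 1, and the arrays of treated Atf4-/- stood far apart. The AP20187 effect in Atf4+/+ was -0.86 ± 0.51 for Cyp4a14 (limma adjusted p = 0.661) and -0.50 ± 0.38 for Cyp4a10 (limma adjusted p = 0.721). A probe set naming Cyp4a31 and Cyp4a32, close relatives, was likewise high in untreated Atf4+/+ replicate 2 (1.38) and untreated Atf4-/- replicate 2 (1.58), with 0.42 and 0.59 in replicate 1 of those groups.

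Cyp4b1, known from lung and for fatty acids and plant toxins, was the only P450 gene whose 4 treated arrays all lay apart from the 4 untreated arrays, where 3.78% of all probe sets were lower in this way and 4.19% higher. Its ratio was 1.34 and 1.11 in untreated Atf4+/+, 1.08 and 1.13 in untreated Atf4-/-, 0.90 and 0.89 in treated Atf4+/+, and 0.89 and 0.92 in treated Atf4-/-. The treated mean was 0.90 ± 0.0141 (SD, n = 4) and the untreated mean 1.17 ± 0.118 (SD, n = 4). The difference was -0.33 ± 0.14 over both genotypes (limma unadjusted p = 0.0547, adjusted p = 0.456), and in a two-sided exact permutation test of this gene p = 0.0286, the smallest that 4 against 4 can give. Since the gene was picked for its separation, that p is a description. A probe set naming Cyp4b1 together with the pseudogene Cyp4b1-ps2 showed no such order, with 0.93, 1.10, 1.15 and 0.77 in the treated and 1.16, 0.80, 0.93 and 1.07 in the untreated arrays. Cyp4v3, whose human counterpart hydroxylates fatty acids of the retina, had ratios of 1.75 and 0.93 in untreated Atf4+/+, 1.17 and 1.07 in untreated Atf4-/-, 1.24 and 0.66 in treated Atf4+/+, and 0.80 and 0.65 in treated Atf4-/-. In Atf4-/- the treated arrays lay below the untreated ones, with a difference of -0.57 ± 0.39 (limma adjusted p = 0.765). Cyp4f13 and Cyp4a12b ranged from 0.56 to 1.24 and from 0.95 to 1.30. A second probe set of Cyp4f13 ranged from 0.60 to 1.95.

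Among the steroid, vitamin D and retinoic acid enzymes, most of which are known to act outside the liver, Cyp27b1 was ordered by genotype after AP20187. Cyp27b1, which makes active vitamin D in the kidney, had ratios of 0.91 and 1.09 in untreated Atf4+/+, 1.40 and 0.58 in untreated Atf4-/-, 0.60 and 0.43 in treated Atf4+/+, and 1.72 and 1.69 in treated Atf4-/-. Both treated Atf4-/- arrays were above all others, while untreated Atf4-/- replicate 2 lay beside the treated Atf4+/+ arrays. After AP20187, Atf4-/- exceeded Atf4+/+ by 1.57 ± 0.39 (unadjusted p = 0.00639, limma adjusted p = 0.648). The AP20187 effect was -0.85 ± 0.39 in Atf4+/+ (limma adjusted p = 0.583) and 0.84 ± 0.39 in Atf4-/- (limma adjusted p = 0.696). Its effects differed by 1.69 ± 0.56 (unadjusted p = 0.0214, limma adjusted p = 0.901), and by 1.0 without the untreated arrays whose Atf4 level stood against the label. Cyp1a1 and Cyp27b1 were the 2 of 36 genes whose ratios separated in opposite directions in the genotypes, lower in Atf4+/+ and higher in Atf4-/-, as 2.62% of all probe sets did.

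Cyp26a1, which degrades retinoic acid, differed between arrays of a group, with 1.24 and 0.26 in untreated Atf4+/+, 0.32 and 1.25 in untreated Atf4-/-, 1.59 and 0.47 in treated Atf4+/+, and 1.02 and 0.98 in treated Atf4-/-. Low and high arrays stood in 3 of the 4 groups, and its AP20187 effects were 0.50 ± 0.86 and 0.55 ± 0.86 in Atf4+/+ and Atf4-/-. Cyp17a1, of androgen synthesis, had the widest range of the 36 genes, 3.24 on the log2 scale. Its ratio was 0.90 and 1.37 in untreated Atf4+/+, 0.11 and 1.88 in untreated Atf4-/-, 0.71 and 0.63 in treated Atf4+/+, and 1.67 and 1.10 in treated Atf4-/-. The lowest and the highest array were of the same group, untreated Atf4-/-, which differed from untreated Atf4+/+ by -0.91 ± 0.95 as labelled and by 0.71 without its replicate 1. Its second probe set was also far apart within that group, at 0.59 and 3.69. The paired probe sets of Cyp24a1, which degrades vitamin D, did not follow each other: untreated Atf4-/- replicate 2 was at 0.42 in the first and 2.56 in the second. Cyp21a1, of corticosteroid synthesis, stayed between 0.82 and 1.21, and Cyp11a1, which cleaves cholesterol for steroid synthesis, between 0.47 and 1.32.

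**Figure D4:**
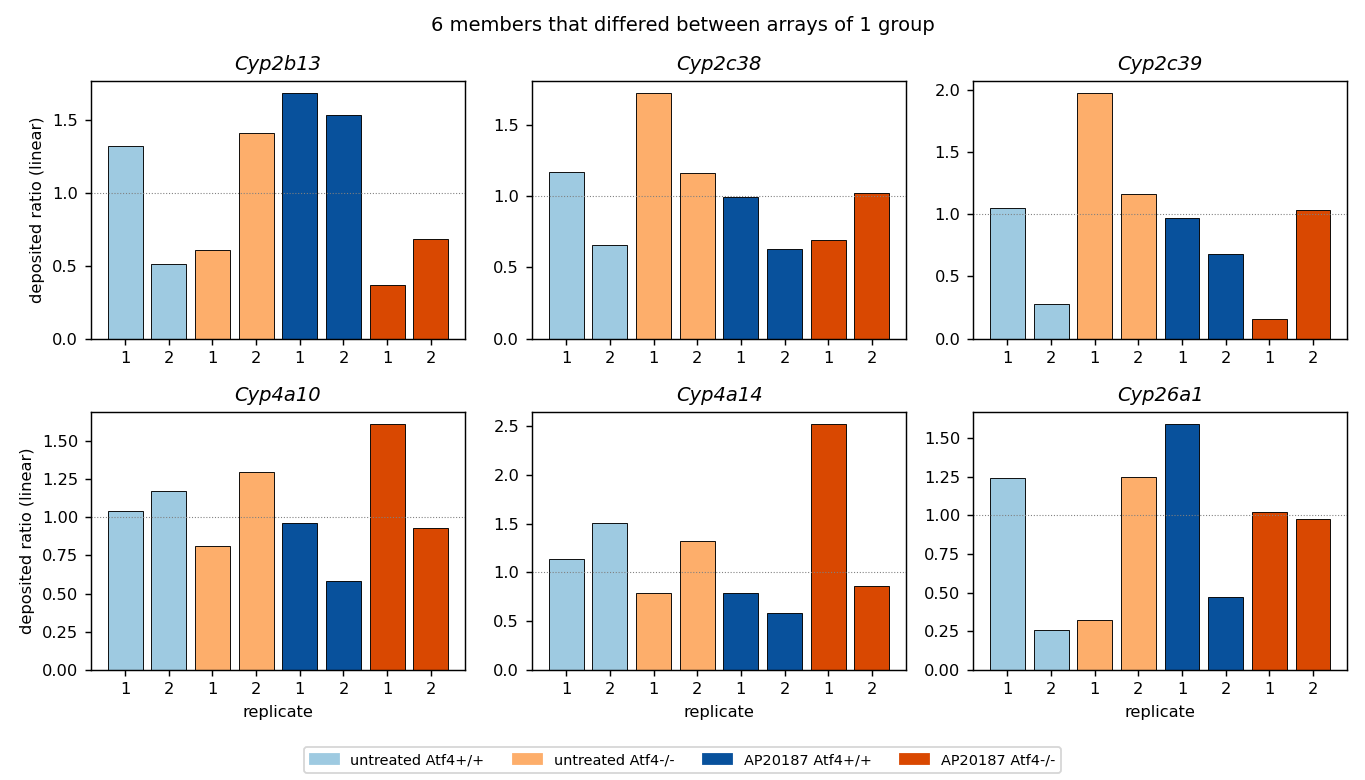
Deposited linear ratio (vertical axis) of 6 P450 genes in each array, with bars coloured by group, the replicate number on the horizontal axis and a dotted line at 1. Within a group the bars differ widely, as for Cyp2c39 in treated Atf4-/- (0.16 and 1.03) and Cyp26a1 in untreated Atf4+/+ (1.24 and 0.26).

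A single array gave the lowest value of many of these genes. Treated Atf4+/+ replicate 2 was the lowest array in 16 of 36 genes (44.4%), where it was the lowest in 20.7% of all probe sets, and the median ratio of the 36 genes in it was 0.75. In the other arrays that median lay between 0.925 and 1.1. RNA quality was read from the 5′ signal over the 3′ signal of control genes: on the log2 scale this array stood at -0.64 for Actb, with -0.19 in the next lowest, and at -0.06 for Gapdh, with -0.05 in the next. The summed ratios of the hepatocyte markers were lowest there too (4.64), but their median was not. On the scale log2(ratio + 0.1) that median was -0.02 there and -0.04 in treated Atf4+/+ replicate 1. The part of RNA quality and of hepatocyte content in the lower P450 ratios of treated Atf4+/+ was not tested. In bulk tissue fewer cells of a type and less RNA per cell cannot be told apart. Untreated Atf4-/- replicate 1 gave the highest value in 10 of 36 genes (27.8%), against 15.3% of all probe sets.

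**Figure D5:**
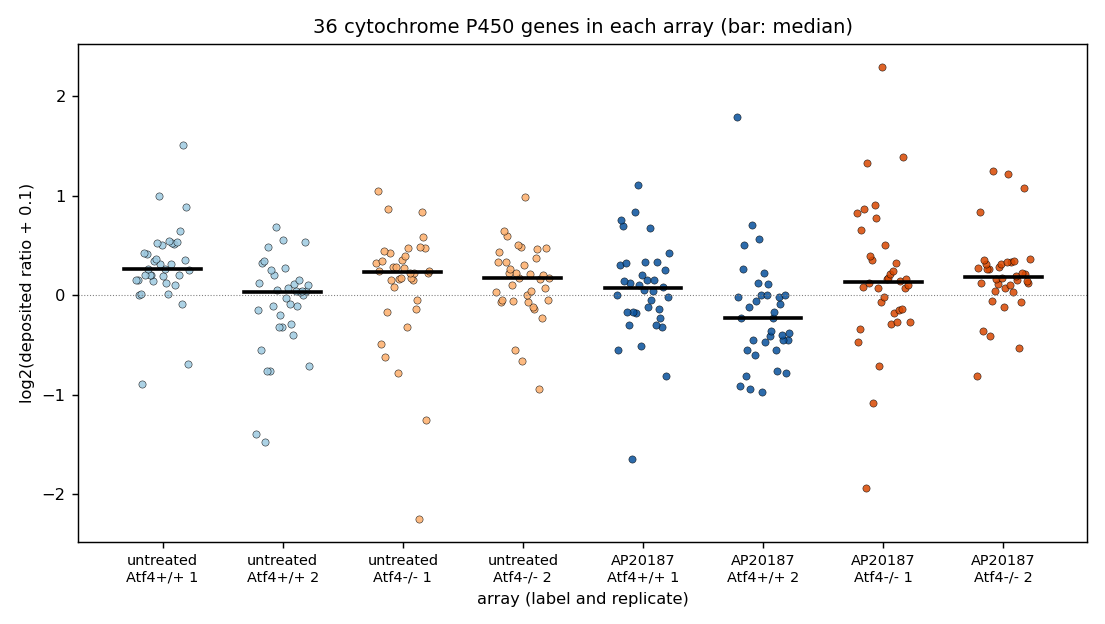
Points are log2(deposited ratio + 0.1) of the 36 P450 genes (vertical axis) in each array (horizontal axis), coloured by group, with a black bar at the median. The median is lowest in treated Atf4+/+ replicate 2, at -0.23, and between 0.04 and 0.26 in the other arrays.

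Several P450 genes of mouse liver are known to differ by sex, and sex is not in the labels. The female-predominant P450 genes measured, Cyp2b9, Cyp2b10, Cyp2b13, Cyp3a16, Cyp17a1, Cyp4a10 and Cyp4a14, had summed ratios from 5.35 in untreated Atf4-/- replicate 1 to 8.88 in treated Atf4-/- replicate 1. They did not move as a block: after AP20187, 4 were higher and 3 lower in Atf4-/- than in Atf4+/+. Xist, the RNA of the inactive X chromosome, ranged from 0.46 in treated Atf4+/+ replicate 2 to 1.97 in untreated Atf4+/+ replicate 1, and the Y-linked Eif2s3y from 0.17 in untreated Atf4-/- replicate 1 to 1.14 in untreated Atf4+/+ replicate 2. Of 5 sex chromosome transcripts listed 4 were measured, and the ratios of the others, Kdm5d and Uty, are not given here. Of the sex-biased liver genes other than P450, 5 of 11 female-biased and 4 of 10 male-biased ones were measured. Their summed ratios ranged over the arrays from 3.48 to 10 for the female-biased and from 3.35 to 6.58 for the male-biased genes. The part of sex in the P450 ratios was not tested.

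The partners of P450 enzymes were read from lists, and 0 of their genes passed the adjusted threshold of limma in any comparison. Of the redox partners 6 of 8 were measured. In Atf4+/+ their AP20187 effect lay below 0 in 5 of the 6, as in 6822 of all 12422 probe sets. It had a median of -0.43 and 1 unadjusted p under 0.05 (4.31% of all probe sets were called lower). The median was -0.11, with 4 of 6 below 0, without treated Atf4+/+ replicate 2, and -0.15 without untreated Atf4+/+ replicate 1. In Atf4-/- it was -0.27, with 4 of 6 below 0. The gene called in Atf4+/+ was Cyb5b, the mitochondrial cytochrome b5, at -0.67 ± 0.25 (unadjusted p = 0.0326, limma adjusted p = 0.511). Of the genes of haem synthesis and breakdown 10 of 12 were measured, with a median effect of -0.02 in Atf4+/+ and 0.21 in Atf4-/-. Hmox2, a haem oxygenase, had ratios of 0.95 and 0.68 in untreated Atf4+/+, 0.72 and 0.89 in untreated Atf4-/-, 1.63 and 1.77 in treated Atf4+/+, and 1.08 and 1.05 in treated Atf4-/-. All 4 treated arrays were above the 4 untreated ones, with a difference of 0.68 ± 0.17 over both genotypes (unadjusted p = 0.00594, limma adjusted p = 0.279).

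Of the transcription factors known to regulate P450 genes 26 of 29 were measured, and over both genotypes 2 were higher and 3 lower after AP20187 at an unadjusted p under 0.05 in limma, where 6.16% and 5.15% of all probe sets were called. The higher ones were Cebpb (0.87 ± 0.28, limma adjusted p = 0.374) and Foxa3 (0.66 ± 0.25, limma adjusted p = 0.424), both factors of hepatocyte gene control. The lower ones were Stat5b, the growth hormone signal transducer (-0.76 ± 0.20, limma adjusted p = 0.298), Tef (-0.69 ± 0.19, limma adjusted p = 0.307) and Nr0b2, the repressor SHP (-0.95 ± 0.39, limma adjusted p = 0.44). For Nr0b2 the effect was -1.62 ± 0.55 in Atf4+/+ (limma adjusted p = 0.492) and -0.28 ± 0.55 in Atf4-/-, where the treated arrays stood at 1.92 and 0.66. These effects of Nr0b2 differed by 1.34 ± 0.78 (limma adjusted p = 0.944). Its untreated arrays stood at 0.88 and 1.94 in Atf4+/+ and at 1.75 and 1.12 in Atf4-/-. Replicate 2 of both untreated groups is in doubt by its Atf4 level. Ahr, the receptor that acts on Cyp1a1, had ratios of 0.96 and 1.28 in untreated Atf4+/+, 0.81 and 0.84 in untreated Atf4-/-, 1.05 and 0.63 in treated Atf4+/+, and 1.20 and 1.47 in treated Atf4-/-. Its AP20187 effects differed by 1.03 ± 0.42 between the genotypes (unadjusted p = 0.0459, limma adjusted p = 0.909). For Arnt, the partner of this receptor, the effects differed by -1.63 ± 0.73 (limma adjusted p = 0.931), the opposite sign, with ratios of 0.48 and 1.26 in untreated Atf4+/+, 2.11 and 1.66 in untreated Atf4-/-, 0.71 and 1.10 in treated Atf4+/+, and 0.90 and 0.40 in treated Atf4-/-. Nr1i3, which encodes CAR, was level in treated Atf4+/+ (1.0 and 0.81), where Cyp2b10 was high, and between 0.76 and 1.21 elsewhere; Ahr, Arnt and Nr1i3 were picked after their values were seen, for their known target genes.

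Most of the other enzymes of drug metabolism, the transferases, oxidases and reductases, lay below 0 after AP20187. Of 62 listed 40 were measured, and over both genotypes 33 lay below 0, as did 6836 of all 12422 probe sets, with a median of -0.29 against -0.04 over all. The median was -0.16 without untreated Atf4+/+ replicate 1 and -0.18 without treated Atf4+/+ replicate 2. At an unadjusted p under 0.05 in limma 6 were lower and 1 higher, beside the shares of 5.15% and 6.16% of all probe sets. Gstm5, a glutathione transferase, had ratios of 2.03 and 1.73 in untreated Atf4+/+, 1.61 and 1.03 in untreated Atf4-/-, 0.97 and 0.68 in treated Atf4+/+, and 0.72 and 0.85 in treated Atf4-/-. Its treated arrays lay below all untreated ones, with a difference of -0.88 ± 0.21 (unadjusted p = 0.00476, limma adjusted p = 0.263). Aox1, an aldehyde oxidase, was low only in treated Atf4+/+, at 0.54 and 0.46 with 0.92 to 1.28 elsewhere, and its genotypes differed by 1.03 ± 0.26 after AP20187 (unadjusted p = 0.00614, limma adjusted p = 0.648). Of the drug transporters 11 of 21 were measured, with a median of -0.06 over both genotypes (-0.24 without untreated Atf4-/- replicate 1), 1 higher and 2 lower at an unadjusted p under 0.05 in limma (6.16% and 5.15% of all probe sets). Slc10a1, the bile acid importer of hepatocytes, was lower, with a difference of -0.68 ± 0.23 (limma adjusted p = 0.382). Abcb1b, a drug efflux pump, had ratios of 0.12 and 0.26 in untreated Atf4+/+, 1.11 and 0.94 in untreated Atf4-/-, 1.14 and 1.63 in treated Atf4+/+, and 1.06 and 0.27 in treated Atf4-/-. It was lowest in the untreated Atf4+/+ arrays, and its AP20187 effects differed by -3.16 ± 0.79 (unadjusted p = 0.00623, limma adjusted p = 0.772).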

How the data were processed

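The deposited values are linear ratios per probe set, one column for each of 8 arrays, as the submitted tables give them. How the authors summarised probes, scaled arrays and chose the divisor is not stated in those sources; 1761 of 12422 probe sets (14.2%) had a row median under 0.99. Brightness and detection calls are unknown, so precision is limited by how few arrays there are. Of 12488 probe sets 66 controls were left out. Ratios were tested as log2(ratio + 0.1) in limma 3.58.1 (R 4.3.3), with 4 group means, lmFit and eBayes, and Benjamini-Hochberg adjustment over 12422 probe sets at 0.05. The script was tested on simulated data.

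Probe sets were named through the platform annotation: 10833 named 1 gene, 396 several and 1193 none. For a gene with several probe sets, the first criterion was a median over arrays not under 0.99, the second a plain probe set name, the last the smallest SD within groups. Where that last criterion decided, it favoured small SEs and p-values. Values in every array are given for P450 genes with one of the 3 smallest p-values in each direction of a comparison and for well known hepatic genes, and for up to 4 genes of a list. Members, lists and rules were chosen with earlier results of these data known. Summary tables and figures used Python 3.11.15, pandas 2.3.3, scipy 1.17.1 and matplotlib 3.10.9. Alternatives changed the scaling, the pseudocount, the filter, the probe set, the variance model, the array weights, the doubted labels and each array in turn.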

Additional observations from a re-analysis of the deposited data

Results flagged for a closer look

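In Cyp1a1 and Cyp27b1 every treated array lay below the untreated arrays in Atf4+/+ and above them in Atf4-/-. The AP20187 effect in Atf4-/- minus that in Atf4+/+ was 1.99 for Cyp1a1 (limma adjusted p = 0.791, range over the alternatives 0.525 to 0.945) and 1.69 for Cyp27b1 (limma adjusted p = 0.901, range 0.484 to 1.0). Neither difference passed the adjusted threshold. The second probe set of Cyp1a1 did not show it (-0.58 ± 1.21).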

How the results depend on the processing

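Under each alternative run, 0 P450 genes passed the adjusted threshold of limma in each of the 118 counts. The counts at an unadjusted p under 0.05 in limma were less stable: they were classed as the same in 90 cases and as moved in 22. The medians of the 36 genes moved by less than the spread in 106 cases and by more in 6. With the mean of all probe sets of a gene, the median difference of the AP20187 effects was 0.12 in place of 0.27. Leaving out arrays gave medians from -0.43 to -0.06 for the effect in Atf4+/+, -0.07 to 0.06 in Atf4-/-, -0.23 to -0.01 over both, 0.08 to 0.39 for their difference, 0.05 to 0.37 between treated and -0.12 to 0.15 between untreated genotypes. Between untreated genotypes 3 genes reversed: Cyp17a1 (1.55 with replicate 1 of Atf4-/- grouped by its description, -2.53 to 0.71 when arrays were left out), Cyp1b1 (0.06 by description, -1.43 to 0.03) and Cyp2d10 (-0.50 to 0.02); the cause was not tested. The fit on only the groups compared could not be run for the difference of effects or for both genotypes. No paired analysis was possible because replicate numbers follow accession order. With 2 arrays a group and no brightness, small or dim changes were not detectable.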

Other observations

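Probe sets that name several P450 genes were not among the 36 genes. The probe set of Cyp2a4 and Cyp2a5, hydroxylases of steroids and coumarin, had ratios of 1.27 and 0.62 in untreated Atf4+/+, 0.98 and 1.18 in untreated Atf4-/-, 1.03 and 0.88 in treated Atf4+/+, and 0.46 and 1.02 in treated Atf4-/-. Its lowest arrays were treated Atf4-/- replicate 1 and untreated Atf4+/+ replicate 2. The probe set of Cyp2c37 and Cyp2c50 had 1.08 and 1.06, then 1.12 and 1.03, then 0.70 and 0.37, then 0.93 and 0.97 in that order of groups, with its lowest arrays in treated Atf4+/+. The probe set of Cyp2d9 and Cyp2d12 ranged from 0.79 to 1.26.

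Markers of other liver cells varied between arrays. The summed ratios of 9 of 9 markers of Kupffer cells ranged from 6.94 in untreated Atf4-/- replicate 2 to 13.1 in untreated Atf4-/- replicate 1, which was also the array with the highest value in 10 of the 36 P450 genes. Sums over 5 of 6 endothelial markers ranged from 4.02 to 7.21, over 6 of 7 stellate cell markers from 5.38 to 8.17, over 3 of 5 bile duct markers from 1.84 to 4.37, over 6 of 7 lymphocyte markers from 4.48 to 8.49, over 2 of 4 red cell markers from 1.21 to 3.5 and over 2 of 5 pancreas markers from 1.44 to 2.38. Their part in the P450 ratios was not tested.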
